A study of Mus musculus with 14 samples.

Results

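The livers of WT and TRPV4-KO mice that carried pancreatic tumors were compared by RNA-Seq across the protein-coding genes. The comparison used 2 WT and 3 TRPV4-KO livers, chosen by their group labels, of the 14 samples of the series. Of the 22046 protein-coding genes in the count table, 13093 had enough reads to be tested. The 218 tested genes within 10 Mb of Trpv4 on chromosome 5 were set aside as possible passengers of the knockout locus, which left 12875. TRPV4 is a calcium-permeable channel of the plasma membrane that opens to mechanical, osmotic and chemical stimuli. A tumor elsewhere in the body can change the liver through the blood: hepatocytes that receive IL-6 secrete acute-phase proteins such as serum amyloid A, and neutrophils and monocytes can enter from the sinusoids. Kupffer cells are the resident macrophages of the sinusoids, and hepatocytes make up most of the tissue and hold its enzymes of lipid, sugar, bile acid and drug metabolism.

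The study asked whether loss of TRPV4 changes the growth and spread of pancreatic cancer. All livers came from mice given 100000 KPCY cells, a mouse pancreatic cancer line with a yellow fluorescent protein, in the tail of the pancreas, and were taken 20 days after surgery. The mice were 8 to 12 weeks old and of both sexes. The methods call them matched by sex and age, but sex reads of the livers compared were not divided evenly. The KO is global and constitutive, while the injected cells keep a working Trpv4. By the study's methods, the animals called WT are floxed Piezo1 mice, and no Cre is named for them. Whether WT and TRPV4-KO mice were littermates, and whether the TRPV4-KO mice carried the floxed Piezo1, is not stated. A further 3 WT livers came from tumor-bearing mice given GSK219 (GSK2193874, a TRPV4 blocker) at 10 mg/kg by gavage every day. They entered the fit, and their values are given for chosen genes and lists, without a test against WT here.

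The 5 libraries held between 15567031 and 17395299 counted reads, and the biological coefficient of variation over all 8 livers was 28.3%. Livers of the same group differed from each other by 18.5 to 123 times the chi-square expected from counting alone. The labels call them biological replicates, and p-values measure the spread between these livers. The labels give no sex, but the reads do: WT liver 1 and TRPV4-KO liver 3 carried Xist, with 14224 and 15754 reads, and the other WT and TRPV4-KO livers carried Y-linked reads. Sex reads were therefore divided 1 to 1 in WT and 1 to 2 in TRPV4-KO livers. Trpv4 (chr5:114622152-114658421, minus strand) was counted 43 and 53 times in the WT livers and 15, 5 and 23 times in the TRPV4-KO livers. The groups did not overlap, with 2.87 ± 0.303 CPM (counted reads of the gene per 1000000; SD, n = 2) and 0.868 ± 0.509 CPM (SD, n = 3). The log2 fold change of WT over TRPV4-KO was 1.71 with a standard error (SE) of 0.50, and it did not pass by edgeR (adjusted p = 0.161). Counts per gene do not show which exons the remaining reads of the TRPV4-KO livers came from.

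The tissue label was checked against markers. Summed over 12 hepatocyte markers, the WT livers held 78574 and 62787 CPM and the TRPV4-KO livers 105776, 86020 and 103422 CPM. Acinar cells of the pancreas left little trace, since 10 of 16 acinar markers, including trypsinogen Prss1, had no read in the 5 livers. Markers of pancreatic tumor epithelium were also low and overlapped, at 26.4 and 12.0 CPM in all for WT and 24.6, 20.7 and 17.6 CPM for TRPV4-KO. Of these, mesothelin Msln was 3.21 ± 0.0929 CPM in WT (SD, n = 2) and 3.46 ± 0.662 CPM in TRPV4-KO livers (SD, n = 3). S100a6, which many cell types express, read 5.01 and 3.44 CPM against 1.58, 0.972 and 1.79 CPM. It did not pass by edgeR (adjusted p = 0.115), passed with the sex term (adjusted p = 0.0486) and by DESeq2 (adjusted p = 0.0107), and was the 1 of 5 tested tumor epithelium markers without overlap.

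Away from Trpv4, 17 protein-coding genes had more reads in WT than in TRPV4-KO livers (0.132% of those tested) and 8 were lower (0.0621%), by edgeR with an adjusted p under 0.05 and a change of more than 2-fold. All 25 (0.194%) had WT livers that lay wholly above or below the TRPV4-KO livers. The higher genes included the acute-phase reactants Saa2 and Hpx and the neutrophil genes Cd177, S100a8 and Cxcr2. The lower genes included the clock gene Per1 and genes of detoxification and sugar handling, Gsta4, Cyp2c29 and Slc2a2. For the other genes no change was called. Over all genes, both WT livers lay above all TRPV4-KO livers for 18.4% of the genes tested and below them for 15.9%, and an unadjusted p under 0.05 was found for 10.2% on the higher and 8.15% on the lower side. The median log2 fold change over all genes was -0.01.

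The number of genes that passed depended on how sex and single livers were handled. With a term for sex reads, 228 genes were higher in WT (1.77%) and 57 lower (0.443%), and DESeq2 called 327 higher (2.55%) and 92 lower (0.718%). Both lists included all 25. Without TRPV4-KO liver 3, 537 were higher and 120 lower, again including all 25. Without TRPV4-KO liver 1 the counts were 3 and 1, without TRPV4-KO liver 2 they were 2 and 0, without WT liver 1 they were 1 and 0, and without WT liver 2 no gene passed. With 2 WT livers, leaving out either leaves a single liver, which is assumed to vary like the other groups. Within the pair of livers with Xist and among those with Y-linked reads, the smallest difference of the 25 genes was 0.82 on the log2 scale of CPM + 0.1. Its direction is fixed, since the groups do not overlap for these genes. In the plot of fold change against p, the genes that passed lie in a narrow band at the top, above a broad body of genes that did not.

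**Figure D1:**
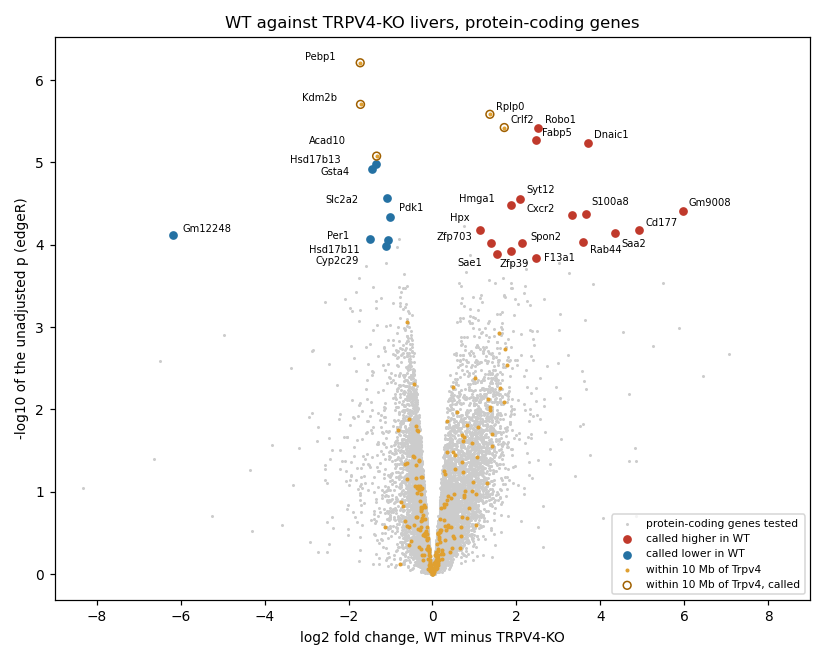
Each point is a protein-coding gene tested, by its log2 fold change of WT over TRPV4-KO livers (horizontal) and -log10 of its unadjusted edgeR p (vertical). The 17 genes higher in WT are red, the 8 lower are blue, and genes within 10 Mb of Trpv4 are orange, with the 5 that passed circled.

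The direction of change went with the level of the gene. Of the 956 tested genes with a mean under 1 CPM over the 5 livers, 26.4% had both WT livers above all TRPV4-KO livers and 4.71% below, and their median log2 fold change was 0.42. Between 1 and 10 CPM the shares were 26.6% and 7.47% of 3840 genes, with a median of 0.19. The balance turned among genes of 10 to 100 CPM, where 14.3% of 6647 genes lay above and 18.5% below, with a median of -0.06. Of the 1432 genes at 100 CPM or more, 9.5% lay above and 33.7% below, with a median of -0.15. Of the genes under 1 CPM, 259 passed the filter on low counts only through the WT livers and had to be higher there. Without them, an alternative chosen after seeing the data, 19.5% of the other 697 lay above and 6.46% below, with a median of 0.25. From 1 CPM upward 13 such genes were left, and 26.5% and 7.5% of the others between 1 and 10 CPM lay above and below. In bulk tissue, fewer cells of a type and less RNA per cell cannot be told apart, and CPM values share a fixed total.

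Among acute-phase proteins, which hepatocytes release into blood in inflammation, serum amyloid Saa2 (chr7:46751790-46754313, plus strand) differed most. It stood at 5277 and 3962 CPM in the WT livers and at 203, 184 and 290 CPM in the TRPV4-KO livers, 20.5 times higher on average in WT, and the groups lay far apart. Its log2 fold change was 4.36 (SE 0.56, adjusted p = 0.0375 by edgeR). The neighboring Saa1 read 5981 and 4499 CPM in WT and 632, 468 and 554 CPM in TRPV4-KO livers, with a log2 fold change of 3.25 (SE 0.50) that did not pass by edgeR (adjusted p = 0.0611). It passed with the sex term (adjusted p = 0.0315). The paralogs are near-identical and can share reads. Summed, they were 9859 ± 1977 CPM in WT (SD, n = 2) and 777 ± 108 CPM in TRPV4-KO livers (SD, n = 3). Hemopexin Hpx (chr7:105591613-105600137, minus strand), which binds free heme in plasma, was 2.20 times higher in WT, at 16603 and 13407 CPM against 7195, 6262 and 6983 CPM (log2 fold change 1.14, SE 0.16, adjusted p = 0.0358 by edgeR). Haptoglobin Hp, which binds free hemoglobin, read 12056 and 8180 CPM in WT and 5368, 4841 and 4703 CPM in TRPV4-KO livers, without overlap and without passing by edgeR (adjusted p = 0.0921). It passed with the sex term (adjusted p = 0.0379) and by DESeq2 (adjusted p = 0.000521).

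Promoters of Saa1, Saa2 and Hpx are shown because these genes stood far apart between the groups, and one of Per1 because it is a clock gene that was lower in WT. Only promoters of these genes that hold a match to the patterns below were kept for display. The sequences are those of RefSeq on GRCm38.p6, from 250 bases before to 50 bases after the start of transcription, read 5′ to 3′ on the gene's strand. Saa1 lies at chr7:46742931-46743230 (minus strand), Saa2 at chr7:46751583-46751882 (plus strand), Hpx at chr7:105600067-105600366 (minus strand) and Per1 at chr11:69098699-69098998 (plus strand). The Per1 start used here lies inside the gene as counted, which begins at chr11:69095217. Capitals mark a match to TTGCNNAA, a pattern of C/EBP factors, in Saa1, Saa2 and Hpx, and to CACGTG, the E-box of clock factors, in Per1.
Saa1: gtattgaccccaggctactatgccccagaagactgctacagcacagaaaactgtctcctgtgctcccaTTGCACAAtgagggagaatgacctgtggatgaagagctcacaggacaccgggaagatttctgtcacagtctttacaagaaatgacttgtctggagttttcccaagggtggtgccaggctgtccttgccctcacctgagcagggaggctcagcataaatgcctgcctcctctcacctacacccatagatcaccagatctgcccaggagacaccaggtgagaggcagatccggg
Saa2: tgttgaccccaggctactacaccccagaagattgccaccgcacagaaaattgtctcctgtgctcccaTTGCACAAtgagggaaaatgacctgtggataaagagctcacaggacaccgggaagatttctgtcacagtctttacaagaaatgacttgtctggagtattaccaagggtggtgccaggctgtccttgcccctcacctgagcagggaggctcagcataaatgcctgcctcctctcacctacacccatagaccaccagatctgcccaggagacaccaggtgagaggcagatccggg
Hpx: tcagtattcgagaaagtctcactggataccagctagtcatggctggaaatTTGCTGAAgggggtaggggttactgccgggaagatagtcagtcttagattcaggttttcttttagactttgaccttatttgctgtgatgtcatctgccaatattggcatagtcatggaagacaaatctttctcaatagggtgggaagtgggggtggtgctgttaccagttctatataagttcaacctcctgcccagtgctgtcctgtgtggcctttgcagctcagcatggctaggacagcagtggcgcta
Per1: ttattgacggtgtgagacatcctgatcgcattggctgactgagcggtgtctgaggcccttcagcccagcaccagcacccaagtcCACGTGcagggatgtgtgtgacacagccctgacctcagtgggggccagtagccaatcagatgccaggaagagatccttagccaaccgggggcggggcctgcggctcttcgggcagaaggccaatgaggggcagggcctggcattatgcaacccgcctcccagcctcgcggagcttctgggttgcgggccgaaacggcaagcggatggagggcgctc
The Saa1 and Saa2 promoters were identical at 287 of 301 aligned positions (95.3%). Their matches begin 182 and 183 bases upstream of the start, that of Hpx 200 bases upstream, and that of Per1 166 bases upstream. On either strand, TTGCNNAA occurred in 10.8% of all 32851 promoters of 27025 genes and in 11 of 20 promoters (55.0%) of 19 acute-phase genes. It also occurred in 5 of 16 promoters (31.2%) of 15 mature neutrophil genes and in 2 of 21 promoters (9.52%) of 16 clock genes. It occurred in 2 of 12 promoters of 10 genes higher in WT and in 2 of 9 promoters of 7 genes lower in WT. CACGTG occurred in 7.15% of all promoters, in 6 of 21 promoters of 16 clock genes (28.6%), in 0 of the 12 promoters of genes higher in WT and in 2 of the 9 of genes lower in WT. The patterns were chosen after the values were seen, and a match describes letters and not binding.

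Of the 24 acute-phase genes listed, 2 passed by edgeR, both higher in WT, while 8 passed with the sex term and 8 by DESeq2. Both WT livers lay above all TRPV4-KO livers for 16 of the 24 and below for 1, beside 18.4% and 15.9% of all genes. Their median log2 fold change was 0.88. The list's summed level was 90509 and 68470 CPM in the WT livers and 39082, 32755 and 43478 CPM in the TRPV4-KO livers, 2.07 times higher on average in WT. Of 8 genes of proteins that the liver makes less of in inflammation, 4 had WT livers below all TRPV4-KO livers and none above, with a median log2 fold change of -0.19 and 3 above 0. None of the 8 passed by edgeR, 3 had an unadjusted p under 0.05, and 1 passed by DESeq2. Albumin Alb read 44375 and 31636 CPM in WT and 71823, 54089 and 74029 CPM in TRPV4-KO livers, and corticosteroid-binding globulin Serpina6 read 197 and 82.7 CPM against 365, 243 and 566 CPM.

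Neutrophil genes formed the next group. Cd177 (chr7:24743983-24760311, minus strand), a glycoprotein of the neutrophil surface, had 48 and 64 reads in the WT livers and 1, 1 and 3 in the TRPV4-KO livers. The ratio of WT to TRPV4-KO was 32.6, with a 95% counting interval of 13.6 to 102 (exact, Clopper-Pearson), and the adjusted p by edgeR was 0.0358. S100a8 (chr3:90668978-90670035, plus strand), a subunit of calprotectin, was at 13.6 and 15.97 CPM in WT and at 0.443, 0.972 and 2.03 CPM in TRPV4-KO livers (log2 fold change 3.67, SE 0.47, adjusted p = 0.0275 by edgeR). Cxcr2 (chr1:74153989-74161246, plus strand), the receptor through which neutrophils follow CXC chemokines, had 35 and 37 reads in WT and 4, 4 and 2 in TRPV4-KO livers (log2 fold change 3.33, SE 0.43, adjusted p = 0.0275 by edgeR). In each of these genes the WT livers lay well clear of the TRPV4-KO livers. S100a9, which pairs with S100a8, read 16.9 and 23.0 CPM against 0.443, 0.907 and 2.78 CPM and did not pass by edgeR (adjusted p = 0.0693). Genes of neutrophil granules, which are transcribed mostly in immature cells, did not pass by edgeR. Myeloperoxidase Mpo had 92 and 70 reads in WT and 0, 0 and 5 in TRPV4-KO livers, elastase Elane 37 and 34 against 0, 3 and 5, and lactoferrin Ltf 143 and 188 against 0, 0 and 8. With the sex term added to the edgeR fit they passed, with adjusted p = 0.0143 for Mpo, 0.0314 for Elane and 0.0352 for Ltf, as did S100a9 (adjusted p = 0.0195). By DESeq2 Mpo, Elane and S100a9 passed and Ltf did not (adjusted p = 0.111). Of these genes, Cd177, Cxcr2, Mpo and Elane entered the test through the WT livers alone, so they had to be higher there.

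Summed over the 16 mature neutrophil markers, the WT livers held 79.8 and 93.1 CPM and the TRPV4-KO livers 24.7, 33.7 and 28.7 CPM, a 2.98-fold difference. The most abundant member was Hdc, named after its values were seen. The other 15 summed to 67.0 and 80.0 CPM against 9.42, 8.03 and 20.9 CPM, a 5.75-fold difference. Of the 11 tested, 10 had a log2 fold change above 0 and 1 below. Summed over 10 granule genes, they held 121 and 99.4 CPM against 23.4, 17.2 and 35.7 CPM, a 4.32-fold difference. Most of this sum was proteinase 3, Prtn3, named after its values were seen, at 84.1 and 58.6 CPM against 14.1, 5.96 and 24.7 CPM (adjusted p = 0.149 by edgeR). The other 9 summed to 36.6 and 40.7 CPM against 9.29, 11.3 and 11.0 CPM, a 3.67-fold difference. Only 11 of the 16 and 8 of the 10 genes were tested, and 6 and 4 of those passed the filter on low counts through the WT livers alone, so these had to differ. Markers of eosinophils, basophils and mast cells summed to 3.46 and 4.66 CPM in WT and 0.506, 0.777 and 0.984 CPM in TRPV4-KO livers, and 1 of the 10 was tested.

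Of 12 markers of monocytes and recruited macrophages, 1 passed, F13a1, which is among the 3 that entered the test through the WT livers alone. This gene (chr13:36867178-37050244, minus strand) encodes a subunit of coagulation factor XIII and is expressed by monocytes, macrophages and megakaryocytes. It had 42 and 35 reads in WT and 7, 6 and 7 in TRPV4-KO livers (log2 fold change 2.47, SE 0.38, adjusted p = 0.0499 by edgeR). Trem2, a lipid receptor of recruited macrophages, read 4.89 and 3.85 CPM against 1.14, 1.23 and 1.22 CPM (adjusted p = 0.0693 by edgeR). The monocyte marker Ly6c2 read 3.09 and 3.21 CPM against 0.885, 0.648 and 1.56 CPM. Over the 12 markers, the summed level was 364 and 254 CPM in WT and 133, 93.5 and 198 CPM in TRPV4-KO livers.

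For all 12 Kupffer cell markers, both WT livers lay above all TRPV4-KO livers, beside 18.4% of all genes and 26.6% of those at 1 to 10 CPM, and the median log2 fold change was 1.36. By edgeR none of the 12 passed, 11 had an unadjusted p under 0.05, 6 passed with the sex term and 11 by DESeq2. The C-type lectin Clec4f, which in liver marks Kupffer cells, read 426 and 430 CPM in WT and 151, 111 and 237 CPM in TRPV4-KO livers. The complement receptor Vsig4 read 155 and 101 CPM against 35.4, 24.9 and 67.4 CPM, and the complement component C1qa 207 and 163 CPM against 65.9, 53.6 and 97.3 CPM. TRPV4-KO liver 3, with Xist reads, was the highest of its group for each. The summed level was 2274 and 2007 CPM in WT and 776, 554 and 1198 CPM in TRPV4-KO livers, 2.54 times higher on average in WT.

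Lymphocytes differed less. T cell markers summed to 17.6 and 10.2 CPM in WT and 9.86, 7.26 and 11.5 CPM in TRPV4-KO livers, and NK cell markers to 6.62 and 3.96 CPM against 3.86, 1.68 and 6.43 CPM. B and plasma cell markers summed to 41.0 and 22.1 CPM against 22, 21.3 and 38.5 CPM. Without Jchain, the most abundant, they summed to 23.8 and 15.6 CPM against 15.2, 19.6 and 35.5 CPM. The median log2 fold change of the 12 tested B and plasma cell markers was -0.74, with 5 above 0 and 7 below. The 3 lists overlapped between the groups, and none of the 27 genes tested in them passed by edgeR or by DESeq2, with an unadjusted p under 0.05 for 2. Genes of antigen presentation on MHC class II overlapped as well, with none of 9 outside the range of the other group, and H2-Ab1 read 88.1 and 34.8 CPM against 80.8, 65.8 and 153 CPM.

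Markers of the vessel wall, platelets and stroma varied by list. Vascular endothelium, over 11 markers, summed to 262 and 216 CPM in WT and 146, 126 and 192 CPM in TRPV4-KO livers, with the junction protein Pecam1 at 47.4 and 34.2 CPM against 23.1, 18.9 and 31.8 CPM. Megakaryocyte and platelet markers summed to 38.6 and 34.0 CPM against 22.5, 15.4 and 26.5 CPM. Of the 5 tested, none passed by edgeR or DESeq2 and 2 had an unadjusted p under 0.05. Sinusoidal endothelium overlapped, at 1011 and 869 CPM against 732, 650 and 986 CPM, and so did quiescent stellate cells, at 387 and 348 CPM against 213, 171 and 369 CPM. Markers of activated fibroblasts summed to 258 and 131 CPM against 100.1, 45.2 and 82.4 CPM, led by collagen Col3a1 at 168 and 71.5 CPM against 41.0, 18.8 and 40.01 CPM. Of the 9 fibroblast genes tested, 3 passed the filter on low counts through WT alone. None of the 43 genes tested in the 2 endothelial, the stellate and the fibroblast lists passed by edgeR, 12 had an unadjusted p under 0.05, and 2 passed by DESeq2. In the plot of summed markers, 8 of 20 lists have both WT livers above all TRPV4-KO livers and 1, hepatocytes, below. Without the most abundant member of each list, an alternative chosen after seeing the data, 7 of these 8 still did, and vascular endothelium overlapped, at 176 and 128 CPM against 102, 95.2 and 132 CPM. Quiescent stellate cells and, at a low level, pancreatic acinar cells then also lay above, which made 9 lists. Erythroid cells then lay below, the 1 list that did. The hepatocyte sum rested on Alb, and the other 11 markers overlapped, at 34199 and 31151 CPM in WT and 33953, 31930 and 29393 CPM in TRPV4-KO livers. Monocyte markers in the GSK219 livers summed to 104, 160 and 238 CPM. The first pair lay within the range of the TRPV4-KO livers, and the other lay above it and below both WT livers.

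**Figure D2:**
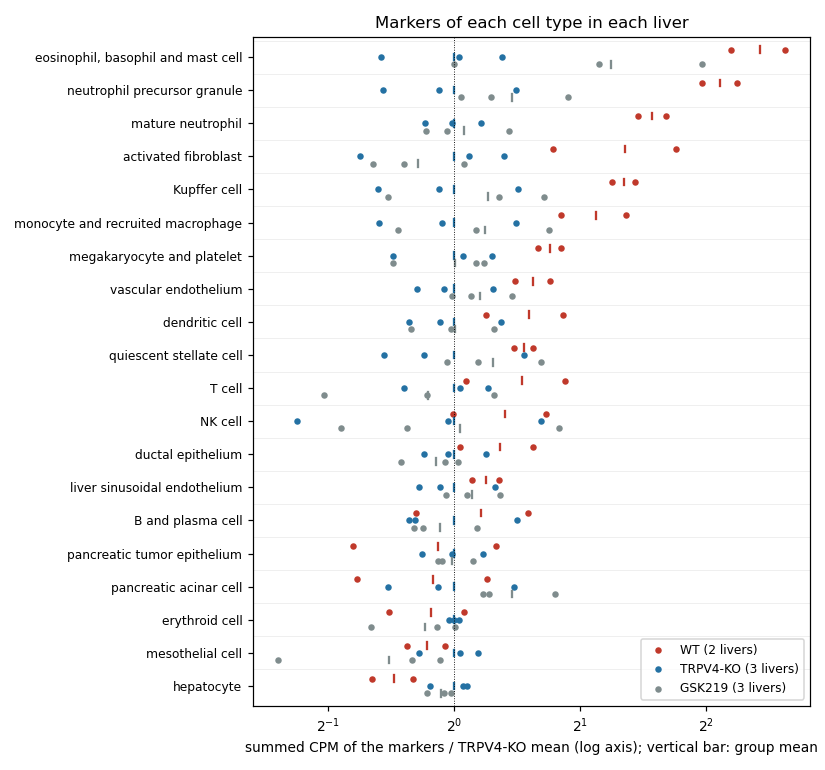
Summed CPM of the markers of 20 cell types in each liver, divided by the TRPV4-KO mean (log axis). Points are livers, vertical bars are group means; the 2 WT livers lie above all 3 TRPV4-KO livers for mature neutrophils, neutrophil granules, Kupffer cells, monocytes, eosinophils with basophils and mast cells, megakaryocytes, vascular endothelium and activated fibroblasts, and below them for hepatocytes, whose sum is mostly Alb and overlaps without it.

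Genes of inflammatory signaling were described by several lists. Of 25 Toll-like, Fc and lectin receptors of myeloid cells, 18 had WT livers above all TRPV4-KO livers and none below, with a median log2 fold change of 1.28. Over all genes these shares were 18.4% and 15.9%, and over genes at 1 to 10 CPM 26.6% and 7.47%. By edgeR none passed, 18 had an unadjusted p under 0.05 and 10 passed by DESeq2. The high-affinity antibody receptor Fcgr1 read 19.6 and 17.4 CPM in WT and 6.96, 4.99 and 8.57 CPM in TRPV4-KO livers, and the lipoprotein sensor Tlr2 16.9 and 9.67 CPM against 4.30, 4.41 and 6.77 CPM. Of 17 chemokine receptors, of which 3 passed the filter through WT alone, Cxcr2 passed by edgeR, 4 passed with the sex term and 5 by DESeq2. Among 18 chemokine ligands none passed by edgeR, 6 had an unadjusted p under 0.05 on the higher and 1 on the lower side, and 5 passed by DESeq2. Their summed level overlapped, at 748 and 641 CPM in WT and 584, 732 and 710 CPM in TRPV4-KO livers, and 5 of the 18 had a log2 fold change below 0. Neutrophil attractant Cxcl1 read 110 and 77.9 CPM against 21.4, 22.5 and 40.5 CPM, and Ccl6 102 and 55.3 CPM against 10.6, 9.26 and 17.8 CPM.

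The counts of genes above and below in the lists that follow stand beside 18.4% above and 15.9% below over all genes, 26.6% and 7.47% at 1 to 10 CPM, and 14.3% and 18.5% at 10 to 100 CPM. Of 13 leukocyte adhesion molecules, 8 lay above all TRPV4-KO livers and none below. The endothelial ligands Icam1 and Vcam1 read 37.7 and 30.2 CPM against 17.1, 19.8 and 23.2 CPM, and 59.3 and 38.5 CPM against 23.0, 13.5 and 25.8 CPM. Of 23 genes of IL-1, TNF and NF-kB signaling, 12 lay above and none below, with a median of 0.84, and Il1b read 18.7 and 15.3 CPM against 1.58, 2.01 and 5.96 CPM. The 16 genes of IL-6 and STAT3 signaling had a smaller median of 0.23, with 6 above and none below. Socs3, the feedback inhibitor of this pathway, read 114 and 86.1 CPM against 34.8, 22.5 and 51.4 CPM. Of 20 immediate early genes, 13 lay above and none below, with a median of 0.86, and Fos read 3.84 and 7.46 CPM against 1.20, 1.55 and 2.03 CPM. None of the 72 genes tested in these 4 lists passed by edgeR, 30 had an unadjusted p under 0.05 and 9 passed by DESeq2. Interferon-stimulated genes had 4 of 24 above and 2 below, with a median of 0.18.

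Extracellular matrix genes came next, with the same shares as background. Of 28 collagens tested, 11 lay above all TRPV4-KO livers and none below, with a median log2 fold change of 0.53, and basement membrane collagens Col4a1 and Col4a2 read 99.3 and 70.3 CPM against 33.0, 23.1 and 54.4 CPM, and 74.0 and 61.7 CPM against 28.5, 20.7 and 41.8 CPM. Of 26 metalloproteinases and their inhibitors, 13 lay above and 2 below. Gelatinase Mmp2 read 12.1 and 7.93 CPM in WT and 3.41, 2.20 and 2.61 CPM in TRPV4-KO livers (adjusted p = 0.0529 by edgeR). In the TGF-beta pathway, 5 of 20 genes lay above, near the background, and 1 below, with Tgfb1 at 37.2 and 27.9 CPM against 18.1, 15.2 and 18.9 CPM, and Bmp6, an inducer of hepcidin, on the other side at 3.71 and 4.90 CPM against 7.84, 8.36 and 13.0 CPM. Of 20 mitotic genes, 8 lay above and none below, with a median of 0.92 and a summed level of 67.9 and 41.6 CPM against 27.3, 19.6 and 43.2 CPM. None of the 94 genes tested in these 4 lists passed by edgeR, 29 had an unadjusted p under 0.05 and 12 passed by DESeq2.

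Further genes that were higher in WT belong to none of the lists. Fabp5, a fatty acid-binding protein (chr3:10012548-10016607, plus strand), was at 108 and 109 CPM in WT and 18.1, 26.04 and 14.6 CPM in TRPV4-KO livers (log2 fold change 2.47, SE 0.24, adjusted p = 0.00722 by edgeR). Robo1, a receptor for Slit guidance proteins (chr16:72308306-73046095, plus strand), was at 19.9 and 27.4 CPM against 4.11, 3.63 and 4.57 CPM (log2 fold change 2.53, SE 0.24, adjusted p = 0.00575 by edgeR). Dnaic1, a chain of the motor of cilia (chr4:41569775-41638158, plus strand), was at 8.17 and 5.59 CPM against 0.696, 0.454 and 0.405 CPM (log2 fold change 3.71, SE 0.37, adjusted p = 0.00722 by edgeR). These 3 had the smallest adjusted p of the 17 and groups several-fold apart. The secreted matrix protein Spon2 (12.4 and 14.3 CPM against 1.96, 2.79 and 4.28 CPM) and the synaptotagmin Syt12 (8.35 and 6.88 CPM against 1.39, 2.14 and 1.85 CPM) had log2 fold changes of 2.14 and 2.08. Rab44, a Rab-family GTPase, had 38 and 30 reads against 3, 1 and 4. The predicted gene Gm9008 had 35 and 23 reads against 0, 0 and 1, a ratio of 84.4 with a 95% counting interval of 14.6 to 3392 (exact, Clopper-Pearson).

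Regulators of transcription and protein modification completed the group. The chromatin protein Hmga1 was at 19.8 and 19.5 CPM in WT and 5.82, 5.38 and 4.98 CPM in TRPV4-KO livers, and Sae1, a subunit of the SUMO-activating enzyme, at 53.4 and 57.3 CPM against 17.9, 16.9 and 22 CPM. The transcriptional repressor Zfp703 was at 39.9 and 29.5 CPM against 13.5, 13.2 and 12.9 CPM, and the zinc finger protein Zfp39 at 5.26 and 4.72 CPM against 1.07, 1.17 and 1.79 CPM. Their log2 fold changes were 1.86, 1.55, 1.40 and 1.88. Of the 17 genes higher in WT, 4 (Cxcr2, F13a1, Rab44 and Cd177) passed the filter on low counts through the WT livers alone. The plot of the 25 genes by liver shows the WT livers on one side of the TRPV4-KO livers in each.

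**Figure D3:**
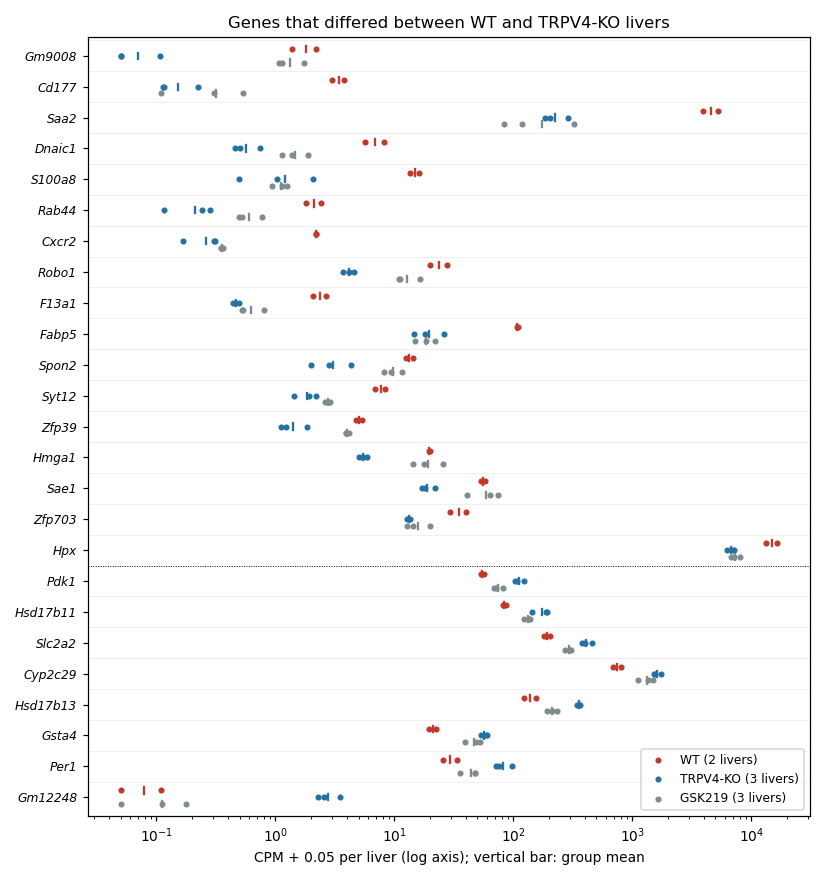
CPM + 0.05 (log axis) in each WT, TRPV4-KO and GSK219 liver for the 17 genes higher in WT (above the dotted line) and the 8 lower (below it). Points are livers and vertical bars are group means; WT and TRPV4-KO points do not overlap for any gene.

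The 8 genes lower in WT include Gsta4 (chr9:78182774-78209349, plus strand), which joins glutathione to aldehydes of lipid peroxidation. It was at 19.5 and 22.6 CPM in WT and 53.1, 58.4 and 59.9 CPM in TRPV4-KO livers (log2 fold change -1.44, SE 0.16, adjusted p = 0.0114 by edgeR). Hsd17b13 (chr5:103955440-103977410, minus strand), a retinol and steroid dehydrogenase of the hepatocyte lipid droplet, was at 123 and 155 CPM against 359, 361 and 344 CPM (log2 fold change -1.35, SE 0.15, adjusted p = 0.0106 by edgeR). Its neighbor and relative Hsd17b11 was at 81.3 and 87.2 CPM against 191, 189 and 144 CPM (log2 fold change -1.05, SE 0.15, adjusted p = 0.0390 by edgeR). Both lie on chromosome 5, just outside the stretch around Trpv4 that was set aside. Drug-metabolizing Cyp2c29 was at 686 and 800 CPM against 1535, 1565 and 1732 CPM, and the glucose transporter Slc2a2 at 204 and 183 CPM against 456, 380 and 400 CPM. Pdk1, which restrains entry of pyruvate into the mitochondrial citric acid cycle, was at 56.8 and 53.1 CPM against 123, 103 and 108 CPM. Their log2 fold changes were -1.12, -1.09 and -1.02.

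The clock repressor Per1 (chr11:69095217-69109960, plus strand) was at 25.4 and 33.3 CPM in WT and 98.3, 71.4 and 76.1 CPM in TRPV4-KO livers (log2 fold change -1.48, SE 0.21, adjusted p = 0.0390 by edgeR). Its partner Per2 read 19.7 and 24.4 CPM against 99.1, 92.5 and 34.6 CPM. It did not pass by edgeR (adjusted p = 0.182), and TRPV4-KO liver 3 was the lowest of its group. Of 19 clock genes, 9 lay below all TRPV4-KO livers and 2 above, with a median of -0.58, 1 passed by edgeR and 3 by DESeq2. The time of day at which livers were taken is not stated. The predicted gene Gm12248 on the same chromosome had 0 and 1 reads in WT and 35, 39 and 59 in TRPV4-KO livers, a ratio of 91.4 with a 95% counting interval of 16.1 to 3635 (exact, Clopper-Pearson).

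Hepatocyte metabolism was described by several lists, to be read beside the 33.7% of all genes at 100 CPM or more that lay below the TRPV4-KO livers. Of 72 subunits of the mitochondrial respiratory chain, 59 lay below all TRPV4-KO livers and none above, with a median log2 fold change of -0.32 and a summed level of 6441 and 7510 CPM in WT against 9172, 9648 and 8401 CPM in TRPV4-KO livers. The order held in each complex, with 27 of 36 subunits below in complex I, 4 of 4 in complex II, 7 of 7 in complex III, 7 of 9 in complex IV and 14 of 16 in complex V. Complex I subunit Ndufb10 read 51.1 and 59.3 CPM against 79.9, 91.7 and 81.3 CPM (adjusted p = 0.0921 by edgeR). By edgeR none of the 72 passed, 44 had an unadjusted p under 0.05, all on the lower side, and none passed by DESeq2 with the 2-fold threshold. Cytosolic ribosomal proteins, a list of similar size, had 8 of 74 below and 3 above, with a median of -0.01.

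Genes of fatty acid metabolism also lay more often below than above. Of 17 genes of fatty acid synthesis, 11 lay below all TRPV4-KO livers and 1 above (median -0.68), and of 28 genes of fatty acid oxidation and targets of PPAR-alpha, 13 lay below and 1 above (median -0.41). The summed level of synthesis overlapped, at 8446 and 13688 CPM in WT against 12311, 10882 and 16165 CPM in TRPV4-KO livers. That of oxidation did not, at 8613 and 7580 CPM against 12412, 11925 and 9204 CPM. The peroxisomal thiolase Acaa1b read 291 and 295 CPM in WT and 888, 1137 and 619 CPM in TRPV4-KO livers (adjusted p = 0.0544 by edgeR). The thioesterase Acot1 read 3.28 and 3.79 CPM against 28.0, 23.8 and 6.83 CPM. Mlxipl, the carbohydrate-responsive activator of lipogenesis, read 300 and 305 CPM against 391, 502 and 490 CPM. None of the 45 genes in both lists passed by edgeR, 19 had an unadjusted p under 0.05, all on the lower side, and 2 passed by DESeq2. Cholesterol synthesis did not follow, with 5 of 24 genes above and 3 below and a median of 0.15. The synthase Hmgcs1 of this pathway read 808 and 422 CPM against 195, 221 and 248 CPM (adjusted p = 0.0995 by edgeR).

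Among enzymes of detoxification, 21 of 53 glucuronosyl-, glutathione- and sulfotransferases lay below all TRPV4-KO livers and none above, with a median of -0.56. The glutathione transferases had 11 of 20 below (median -0.54), the glucuronosyltransferases 6 of 18 (median -0.47) and the sulfotransferases 4 of 15 (median -0.96). Shares of the glucuronosyl- and sulfotransferases were near or under the 33.7% of all genes at 100 CPM or more. Gsta2 read 4.82 and 7.58 CPM in WT and 15.6, 20.99 and 25.7 CPM in TRPV4-KO livers (adjusted p = 0.0662 by edgeR). Cytochromes P450 had 11 of 61 below and 2 above, a share on the lower side close to that over all genes, with a median of -0.28. Over both lists, Gsta4 and Cyp2c29 passed by edgeR. Many of these enzymes differ by sex in mice. Of 17 sex-biased liver genes, none passed by edgeR or DESeq2 and 0 had an unadjusted p under 0.05, while with the sex term 2 were higher and 3 lower in WT.

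Bile acid synthesis and transport had 8 of 23 genes below and none above (median -0.39), a share near the 33.7% of all genes at 100 CPM or more, with the uptake transporter Slc10a1 at 318 and 355 CPM in WT and 519, 481 and 536 CPM in TRPV4-KO livers and the reductase Akr1d1 at 118 and 98.2 CPM against 208, 187 and 221 CPM. Glucose metabolism had 8 of 16 below and none above (median -0.43). Beside Slc2a2, liver pyruvate kinase Pklr read 79.5 and 87.8 CPM against 208, 221 and 187 CPM (adjusted p = 0.115 by edgeR). Urea cycle and amino acid breakdown had 6 of 23 below, a smaller share than that 33.7%, and 1 above (median -0.23), and its summed level overlapped, at 21610 and 28840 CPM against 27206, 26223 and 35422 CPM, with ornithine transcarbamylase Otc at 224 and 264 CPM against 332, 396 and 394 CPM. Of 14 heat shock proteins, 5 lay below, a share near that 33.7%, and none above (median -0.58). Mitochondrial chaperonin Hspd1 read 270 and 287 CPM against 427, 415 and 363 CPM. Of these 76 genes, Slc2a2 passed by edgeR, 21 had an unadjusted p under 0.05 on the lower side and 1 on the higher, and 4 passed by DESeq2, all lower in WT.

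Other lists were divided. Complement had 9 of 27 above and 4 below (median 0.09), and coagulation 9 of 29 above and 6 below (median 0.09). Thrombomodulin Thbd, an anticoagulant receptor of endothelium, read 23.8 and 18.8 CPM in WT and 7.08, 4.21 and 5.15 CPM in TRPV4-KO livers (adjusted p = 0.0766 by edgeR). Iron and heme genes were divided, with 6 of 20 above and 6 below. Proteasome subunits had 3 of 37 above and 3 below (median 0.02). Of the 61 lists, 41 had a median above 0 and 20 below. Of the 1114 genes tested in any list, 10 passed, and the other 15 of the 25 belong to no list.

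**Figure D4:**
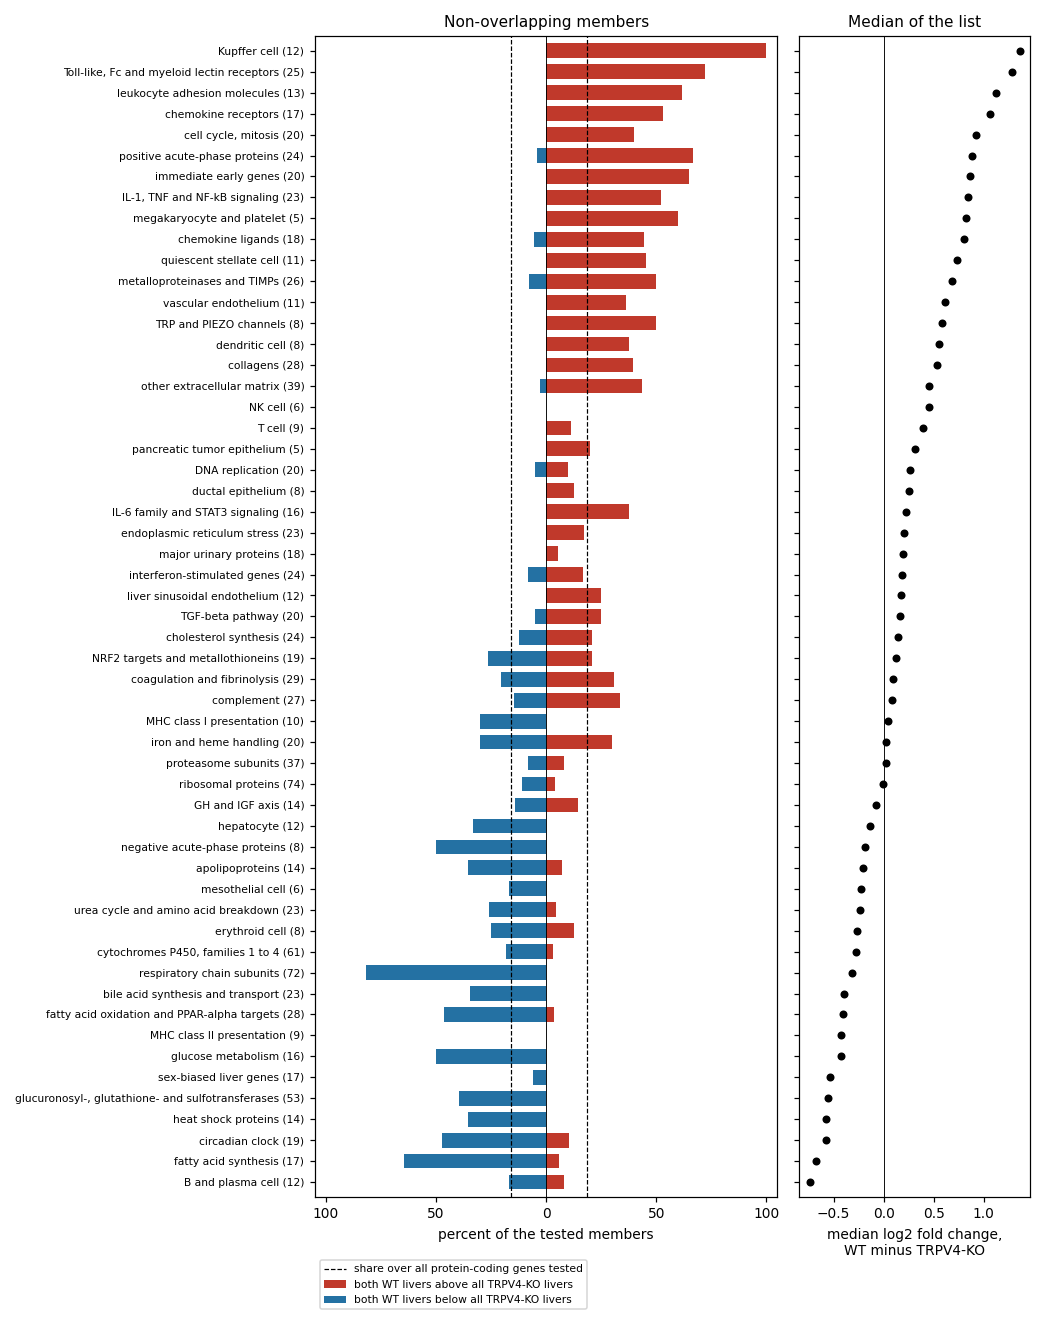
For 55 lists with at least 5 tested members (number in parentheses), bars give the percent of tested members with both WT livers above (red) or below (blue) all TRPV4-KO livers, and points the median log2 fold change. Dashed lines mark the shares over all genes, 18.4% above and 15.9% below; 4 lists with 20% or more of their members tested through WT alone are left out.

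Within 10 Mb of Trpv4, 5 of 218 protein-coding genes passed (2.29%), a larger share than in the rest of chromosome 5, where 3 of 618 did (0.485%: Hsd17b13, Hsd17b11 and Spon2). Pebp1, an inhibitor of Raf kinase 2.64 Mb from Trpv4, was at 116 and 124 CPM in WT and 384, 409 and 394 CPM in TRPV4-KO livers (log2 fold change -1.72, SE 0.13, adjusted p = 0.00311 by edgeR). The histone demethylase Kdm2b was at 13.5 and 13.5 CPM against 44.3, 44.7 and 43.9 CPM (log2 fold change -1.71, SE 0.15, adjusted p = 0.00426 by edgeR). Acad10, an acyl-CoA dehydrogenase family member, was at 30.1 and 32.2 CPM against 73.7, 78.9 and 82.2 CPM. Crlf2, a receptor chain for thymic stromal lymphopoietin, was at 20.9 and 20.2 CPM against 6.51, 6.74 and 5.56 CPM.

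Ribosomal protein Rplp0 read 411 and 400 CPM in WT and 171, 164 and 137 CPM in TRPV4-KO livers (log2 fold change 1.37, SE 0.12, adjusted p = 0.00492 by edgeR). Reads of the pseudogenes Gm8730 and Gm9625, which can share reads with Rplp0, were summed with it, although sequence identity and multiple mapping were not measured here. The pseudogenes stood at 1.74 ± 0.0734 and 0.360 ± 0.0152 CPM in WT (SD, n = 2) and at 191 ± 21.7 and 22.3 ± 4.15 CPM in TRPV4-KO livers (SD, n = 3). Summed over the 3 genes, the levels were 408 ± 7.63 and 370 ± 43.7 CPM. The sums overlapped, at 413 and 402 CPM in WT and 403, 386 and 321 CPM in TRPV4-KO livers. By distance of gene midpoints, 2 of 94 genes passed within 5 Mb of Trpv4, 3 of 123 between 5 and 10 Mb, 2 of 82 between 10 and 20 Mb and 1 of 537 beyond. The stretch around Piezo1, whose floxed allele is stated for WT mice, had 0 of 112 genes passing by edgeR (0.0%), with 18 at an unadjusted p under 0.05 and 2 by DESeq2. Piezo1 itself read 23.6 and 19.2 CPM in WT and 11.4, 11.3 and 17.6 CPM in TRPV4-KO livers (adjusted p = 0.246 by edgeR).

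**Figure D5:**
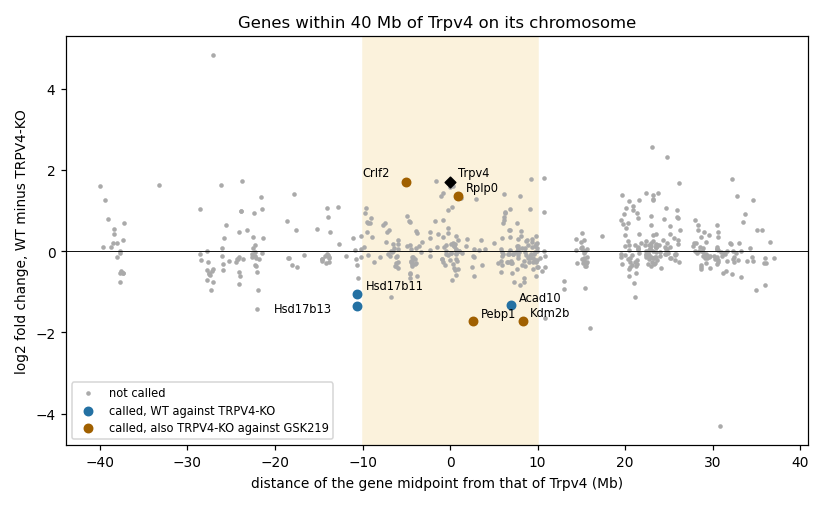
Log2 fold change of WT over TRPV4-KO livers for 569 tested protein-coding genes within 40 Mb of Trpv4 on chromosome 5, by distance of gene midpoints in Mb. Shading marks the 10 Mb on each side; brown points passed against both WT and GSK219, blue points against WT only.

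The WT livers treated with GSK219 have an intact Trpv4 locus, and they were compared with the same 3 TRPV4-KO livers, so the values of both comparisons are given side by side only. Away from Trpv4, 1 gene was higher (0.00777%) and 2 were lower (0.0155%) in TRPV4-KO than in GSK219 livers by edgeR, namely Gm12248, Hmga1 and Sae1, all of which also differed between WT and TRPV4-KO. None of them passed against GSK219 with adjustment over protein-coding genes only. Hmga1 was at 17.6, 25.4 and 14.2 CPM in GSK219 livers and Sae1 at 74.5, 63.1 and 40.9 CPM, near the WT levels. Near Trpv4, 4 of 218 passed (1.83%), namely Crlf2, Rplp0, Pebp1 and Kdm2b, and Pebp1 was at 136, 114 and 139 CPM and Kdm2b at 12.8, 14.1 and 10.3 CPM in GSK219 livers. Acad10 had an adjusted p of 0.0443 by edgeR with a log2 difference of 0.91, under the fold threshold. For 21 of the 25 genes away from Trpv4, the GSK219 mean lay between the WT and TRPV4-KO means. These genes were chosen for a large difference between WT and TRPV4-KO, so a further group tends to fall between them by that choice. The share over all genes was not computed. For Saa2, at 119, 322 and 82.8 CPM, S100a8, at 0.881, 1.09 and 1.20 CPM, and Fabp5, at 14.9, 18.5 and 21.9 CPM, the GSK219 livers lay among or near the TRPV4-KO livers. Robo1, at 10.8, 11.2 and 16.4 CPM, and Spon2, at 8.12, 11.6 and 9.33 CPM, lay between the groups. Kupffer cell markers summed to 585, 1079 and 1378 CPM and mature neutrophil markers to 24.9, 39.3 and 27.9 CPM, and respiratory chain subunits to 8176, 8140 and 8129 CPM.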

How the data were processed

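RNA-Seq was measured in 8 livers of tumor-bearing mice, 2 WT, 3 TRPV4-KO and 3 given GSK219. The authors deposited raw counts of reads per gene, with gene coordinates. Submitters' processing notes name Trim Galore and HISAT2 (2.0.5), and the counting tool, its annotation and its use of strand are not given in the sources used here. Antisense or overlapping genes and near-identical copies can therefore share reads. Coordinates were checked against GENCODE vM21 (GRCm38): all 21951 protein-coding IDs found there overlapped, 21180 with identical ends. A further 7 columns match no sample described here and were not used. A table of stellate cells, which holds normalized values and the authors' own fold changes and p-values, was not used.

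Genes with too few reads (filterByExpr, minimum count 10) were left out, which kept 15118 of all biotypes. Library sizes were scaled by TMM, and edgeR 4.0.16 (R 4.3.3) fitted the robust quasi-likelihood model to all 8 livers, with Benjamini-Hochberg adjustment over the 15118. A gene passed at an adjusted p under 0.05 and a change of more than 2-fold. The study's replicates were grouped by their labels. Gene lists and members were chosen with earlier results of these data known. Lists are described by counts and medians, without a set test. Genes named are Trpv4, Piezo1, up to 15 passing genes in each direction by fold change (mean of at least 1 CPM), up to 4 members of each list by smallest p, up to 8 genes near Trpv4 by smallest p, and the first 2 members of each cell marker list. Gm9008, Rab44, Gm12247, 2610507I01Rik, Gm8730, Gm9625, Prtn3 and Hdc were named after their values were seen. Some genes that the rule names are not reported here. Counting intervals cover counting error only.

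On simulated data for WT against TRPV4-KO over 14807 genes, edgeR recovered 29.1% of genes changed 2-fold, 84% of those changed 4-fold, 83.3% at 8-fold and 93.6% at 16-fold, with 4 false calls of 146. DESeq2 1.42.0 made 27 false calls of 177 on 15118 genes. Alternatives were DESeq2, relative log expression size factors, no filter on low counts, only the groups compared, a term for sex reads, a replicate block, no fold threshold, adjustment over protein-coding genes only, windows of 5 and 20 Mb around Trpv4, and leaving out each liver.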

Additional observations from a re-analysis of the deposited data

Results flagged for a closer look

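For 11 of the genes named here, the TRPV4-KO livers also differed from the WT livers given GSK219 by edgeR, with the same TRPV4-KO livers in both comparisons. As log2 differences of TRPV4-KO minus GSK219, they were -1.82 for Hmga1, -1.65 for Sae1 and 5.31 for Gm12248. Near Trpv4 they were -1.40 for Crlf2, -1.34 for Rplp0, 1.61 for Pebp1 and 1.84 for Kdm2b, and for the pseudogenes Gm8730 and Gm9625, which can share reads with Rplp0, they were 6.82 and 7.22. On chromosome 11 they were 2.39 for the pseudogene Gm12247 and -5.33 for the transcript 2610507I01Rik. Some pseudogenes and noncoding transcripts that are not named here also passed in both comparisons.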

How the results depend on the processing

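The 17 genes higher and 8 lower in WT became 327 and 92 by DESeq2, 228 and 57 with a term for sex reads, 86 and 26 without a filter on low counts, and 8 and 2 with only the groups compared. Leaving out 1 liver gave 0 to 537 higher and 0 to 120 lower. Of the 25, 25 remained by DESeq2, with the sex term and with relative log expression size factors, 24 without a filter, 23 with adjustment over protein-coding genes and 8 with only the groups compared. Leaving out 1 liver kept between 0 and 25. The 5 genes near Trpv4 became 13 by DESeq2, 9 with the sex term, 2 within 5 Mb, and 0 to 12 with 1 liver left out. The 10 list members became 104 by DESeq2, 85 with the sex term, 31 without a filter, 4 with only the groups compared, and 0 to 120 with 1 liver left out. The 3 genes of TRPV4-KO against GSK219 became 57 by DESeq2, 17 with the sex term, 17 without a filter, 5 with relative log expression size factors, 1 with only the groups compared, 0 with adjustment over protein-coding genes, and 0 to 56 with 1 liver left out. The cause was not tested. Of the named genes, Msln, which did not pass, turned its direction, with log2 fold changes from -0.24 to 0.036 with 1 liver left out, and no other did under these settings.

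The replicate block gave 326 genes higher and 60 lower, 11 near Trpv4, 90 list members and 7 against GSK219, and kept 23 of the 25. Saa2 (adjusted p = 0.0555 by edgeR) and Pdk1 (log2 fold change -0.99) no longer passed with it, while Mpo, Elane and Ltf passed (adjusted p = 0.0120, 0.0435 and 0.0443). Deviations of same-numbered livers correlated at -0.46 for number 1 and 0.61 for number 2, so the numbers were not read as pairs. With 2 WT livers, 1 with Xist reads, group and single livers cannot be told apart in full, and low counts limit the rarest genes.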

Other observations

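In a stretch of chromosome 11 that begins at 57 Mb, 4 of 51 genes of all biotypes differed between WT and TRPV4-KO livers by edgeR. On the whole chromosome 6 of 1193 did, and these include the 4. The stretch was drawn around the 4 genes after they were seen, so its larger share follows from that choice. Of the 4, 3 also differed between TRPV4-KO and GSK219 livers. The 4 genes lie within 1.14 Mb. The transcript 2610507I01Rik (chr11:59199836-59202385) had 139 and 115 reads in WT, 4, 3 and 4 in TRPV4-KO and 138, 178 and 146 in GSK219 livers. The pseudogene Gm12247 (chr11:58097104-58097773) had 48 and 44 reads in WT, 257, 245 and 278 in TRPV4-KO and 66, 43 and 41 in GSK219 livers. Zfp39 and Gm12248 are the other two. The genotypes of this stretch were not analysed here.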
